A study of Mus musculus with 3 samples.

Results

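Chemokines of the fracture callus were followed through 10 genes, *Cxcl1*, *Cxcl2*, *Cxcl5*, *Cxcl9*, *Cxcl10*, *Cxcl12*, *Cxcl14*, *Ccl2*, *Ccl7*, and *Ccl9*. They were chosen by name, though with earlier results of these data known. They were matched by symbol and make up 10 of the 32285 genes in the count tables. All 10 had UMIs on each day. The libraries, 3 in all, were made from single cells in droplets, from femoral fracture callus of C57BL/6 mice, 1 library each at day 7, day 10, and day 14 after fracture, with no other treatment. Callus was freed of muscle and marrow, digested with type I collagenase, and sorted for live cells without CD31, CD45, and TER119, the surface marks of endothelial, hematopoietic, and erythroid cells. The labels do not give the age or the number of the mice in each library. Transcripts were counted by unique molecular identifiers (UMIs), so levels are numbers of UMIs.

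Chemokines are small secreted proteins that bind G protein–coupled receptors and direct the migration of leukocytes, and some also hold stem cells in their niche or guide vessel growth. In a fracture, ligands of CXCR2 (CXCL1, CXCL2, and CXCL5) attract neutrophils, and ligands of CCR2 (CCL2 and CCL7) attract monocytes. The interferon-induced ligands of CXCR3 (CXCL9 and CXCL10) attract T cells. CXCL12, the ligand of CXCR4 and of the scavenging receptor ACKR3, marks reticular cells of bone marrow, and CCL9, a ligand of CCR1 in mice, is known from myeloid cells and osteoclasts.

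Before the results, 2 facts about the libraries have to be given. First, the day 7 library went against the sort. Of its 7017 cells within the study's limits on genes, mitochondrial UMIs, and hemoglobin UMIs, 6570 (93.6%) had a UMI of *Ptprc*, the gene for CD45. At day 10 this held for 6 of 6593 cells (0.0910%) and at day 14 for 173 of 9853 cells (1.76%). Second, with 1 library per day, day and library cannot be told apart, and the depth differed, with a median of 5056 UMIs per cell at day 7, 17370.0 at day 10, and 15802 at day 14. Cell barcodes found in more than 1 library within the limits numbered 13 for days 7 and 10, 26 for days 7 and 14, and 18 for days 10 and 14.

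Cells without a UMI of *Ptprc* were sorted into 6 classes by a high level of 1 marker, where high means at least 3 UMIs and a level of at least 25% of the marker's 99th percentile. *Aspn*, a small proteoglycan of *Postn*+ osteoprogenitors, was high in 1035 cells at day 10 and 2481 at day 14. *Cyp1b1*, a cytochrome P450 gene, was high in 55 and 69 cells, *Ucma*, a gene of chondrocytes, in 1195 and 698, and *Col10a1*, the collagen gene of hypertrophic chondrocytes, in 399 and 874. *Ifitm5*, a gene of osteoblasts, was high in 119 and 365 cells, and *Rgs5*, a gene of pericytes, in 70 and 197. The fixed markers of each class were higher there than in the other classes on both days, except *Cspg4* in *Rgs5*-high cells and, in *Cyp1b1*-high cells, *Adipoq* on both days and *Vcam1* at day 10. *Cspg4* stood at 306 CPM (UMIs of a gene per 1000000 UMIs of the cells) against 247 at day 10, a ratio under the 2-fold limit, *Vcam1* at 98.7 CPM against 51.0, and *Adipoq* at 0 UMIs at day 10 and at 7.76 CPM against 0.0273 at day 14, with fewer than 30 UMIs. At day 7, only 55 cells were high for any of the 6 markers, so they were treated as 1 group. A further 3714 cells at day 10 and 4996 at day 14 had neither *Ptprc* nor a high marker, and these unassigned cells held 84.4% of the UMIs of *Cxcl5*, 65.2% of those of *Ccl7*, and 64.1% of those of *Cxcl14* at day 10. In the classes, therefore, the genes are described for the cells that a marker names and not for the whole callus.

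Levels are CPM of UMIs summed over a class, with exact Poisson 95% intervals. A gene was called higher or lower where the ratio was at least 2-fold and its exact binomial 95% interval left out 1, for genes with at least 30 UMIs in both groups together. The intervals cover counting error only and not the variation between mice, and a single cell can hold most UMIs of a gene, so cells that ended a call when left out are named.

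A promoter was found for 7 of the 10 genes in the RefSeq table of GRCm38.p6, and 3 are printed because they hold the letters for which this family is known. Capitals mark the matches to a κB motif in *Cxcl1* and *Cxcl2*, and to an interferon-stimulated response element (GAAANNGAAA) and then to κB motifs in *Cxcl10*. The sequences are the 250 bases before the RefSeq start on the gene's own strand, at chr5:90890995-90891244 (plus) for *Cxcl1*, chr5:90903649-90903898 (plus) for *Cxcl2*, and chr5:92348890-92349139 (minus) for *Cxcl10*.
Cxcl1: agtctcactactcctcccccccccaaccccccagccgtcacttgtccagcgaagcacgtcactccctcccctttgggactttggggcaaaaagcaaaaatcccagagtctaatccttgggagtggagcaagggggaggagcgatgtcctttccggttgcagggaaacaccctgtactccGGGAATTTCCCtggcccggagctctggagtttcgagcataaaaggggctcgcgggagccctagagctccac
Cxcl2: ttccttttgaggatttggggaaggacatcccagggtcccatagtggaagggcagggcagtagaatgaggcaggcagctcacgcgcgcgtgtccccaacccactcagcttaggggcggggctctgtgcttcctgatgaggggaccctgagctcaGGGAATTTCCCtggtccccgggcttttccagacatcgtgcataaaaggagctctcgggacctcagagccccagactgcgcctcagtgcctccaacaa
Cxcl10: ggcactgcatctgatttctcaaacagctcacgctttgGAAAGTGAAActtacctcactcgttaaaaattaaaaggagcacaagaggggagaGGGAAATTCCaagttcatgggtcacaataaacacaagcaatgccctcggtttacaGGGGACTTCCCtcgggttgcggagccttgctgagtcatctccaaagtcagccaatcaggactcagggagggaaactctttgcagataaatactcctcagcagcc
The same run of κB letters lies at positions −71 to −61 from the RefSeq start of *Cxcl1* and −97 to −87 from that of *Cxcl2*. Both windows end inside the gene as GENCODE M21 places it. They end at 90891244 for *Cxcl1* (GENCODE start 90891241) and at 90903898 for *Cxcl2* (90903871), so these distances depend on the annotation. The κB motif, searched on both strands, was present in 4 of the 7 promoters (*Cxcl1*, *Cxcl2*, *Cxcl10*, and *Ccl9*) and in 7.25% of all 32851 promoters of this length. The response element GAAANNGAAA was present in *Cxcl10* and *Cxcl14* and in 2.98% of all, and the letters TTCNNNGAA of a STAT site in *Cxcl14* and in 7.02% of all. Some matches to κB overlap on the opposite strand and were counted as 1 stretch. A match describes the letters and is not evidence of binding.

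In the mouse genome (GRCm38, GENCODE M21), 5 of the genes lie on chromosome 5. *Cxcl1* (chr5:90891241-90893115) and *Cxcl2* (chr5:90903871-90905938) are 10.8 kb apart, with *Cxcl5* (chr5:90759360-90761624) 129.6 kb before *Cxcl1*. *Cxcl9* (chr5:92321347-92328079) and *Cxcl10* (chr5:92346638-92348889) are 18.6 kb apart. On chromosome 11, *Ccl2* (chr11:82035571-82037453) and *Ccl7* (chr11:82045712-82047525) are 8.26 kb apart, and *Ccl9* (chr11:83572919-83578636) follows 1525 kb further on. *Cxcl12* (chr6:117168535-117181367) and *Cxcl14* (chr13:56288643-56296551) have no other of the 10 genes on their chromosome.

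**Figure D1:**
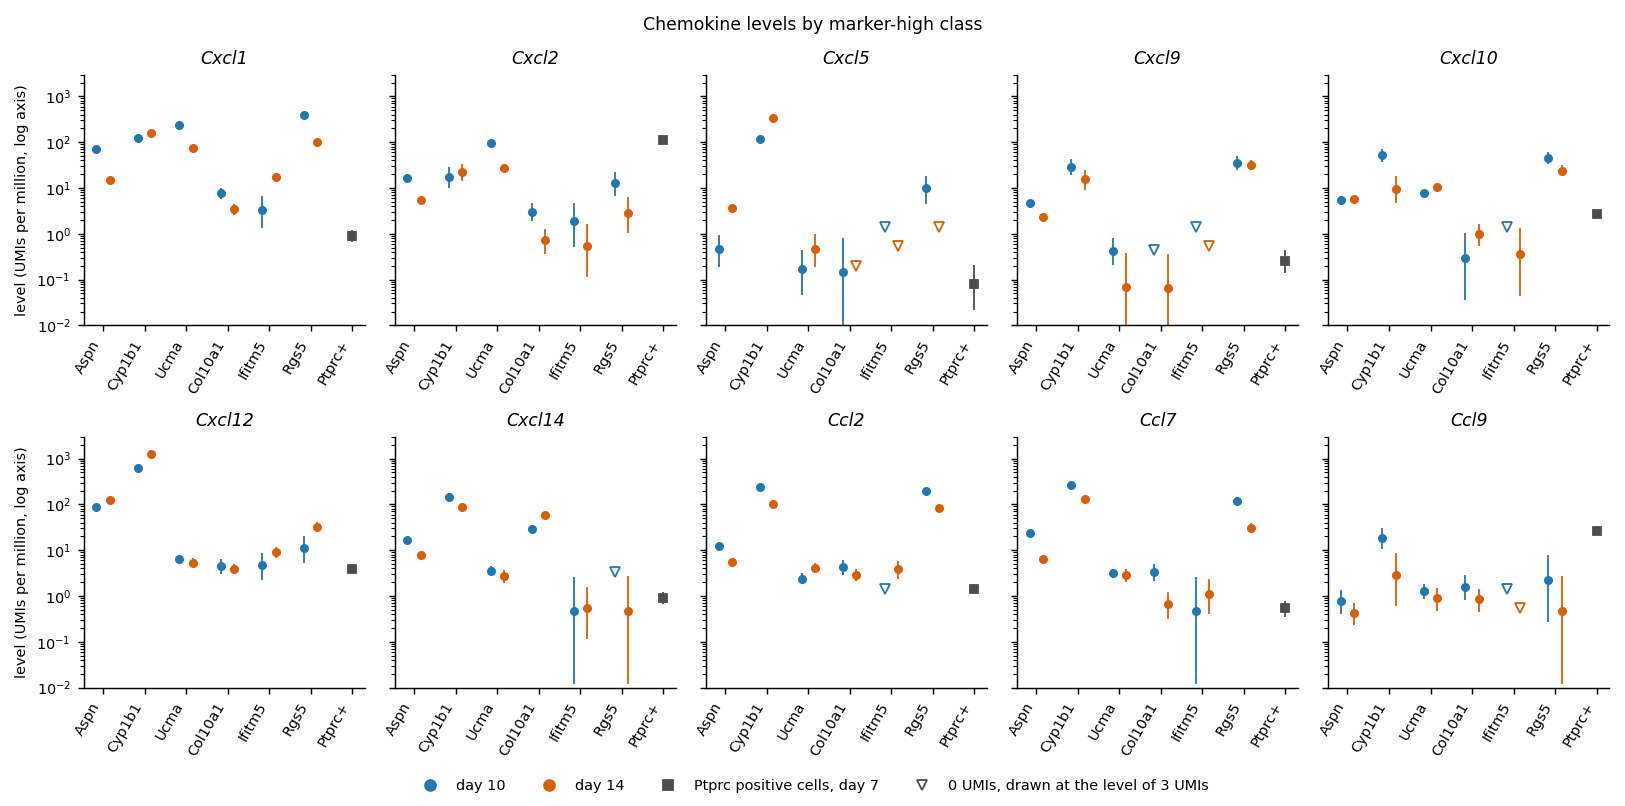
Level of each chemokine gene, in CPM on a log axis, in the 6 marker-high classes at day 10 and day 14 and in *Ptprc* positive cells of day 7. Bars are exact Poisson 95% intervals, which can be smaller than the points, and open triangles are groups with 0 UMIs, drawn at the level of 3 UMIs. *Cxcl12* reaches 1250.1 CPM in *Cyp1b1*-high cells at day 14, and *Cxcl2* stands at 109 CPM in *Ptprc* positive cells.

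The genes divided between the classes. At day 10, *Cyp1b1*-high cells were higher than the other 5 classes together in 8 of the 10 genes, all but *Cxcl1* and *Cxcl2* (log2 ratios −0.21 and −1.55), where 10.5% of the 13325 genes tested were higher. *Rgs5*-high cells were higher in 6 (*Cxcl1*, *Cxcl5*, *Cxcl9*, *Cxcl10*, *Ccl2*, and *Ccl7*), where the background was 12.3%. *Aspn*-high cells were higher in 2, *Cxcl9* and *Cxcl12* (background 13.5%), and *Ucma*-high cells in 2, *Cxcl1* and *Cxcl2* (background 4.82%). *Col10a1*-high cells were higher in 1, *Cxcl14* (background 8.77%), and *Ifitm5*-high cells in 0 (background 4.30%). The share of the 10 genes that were higher was thus far above the background in *Cyp1b1*-high and *Rgs5*-high cells and near it in *Aspn*-high, *Col10a1*-high, and *Ifitm5*-high cells.

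Most of the 10 genes were lower in the classes of cartilage and bone. At day 10, 9 were lower in *Ifitm5*-high cells, all but *Ccl9* (background 13.9%), 8 in *Col10a1*-high cells, all but *Cxcl14* and *Ccl9* (16.8%), and 6 in *Ucma*-high cells (19.1%). In *Aspn*-high cells 4 were lower (7.94%), in *Rgs5*-high cells 3 (8.56%), and in *Cyp1b1*-high cells 1, *Cxcl2* (4.43%), whose ratio turned to 0.36 in all deposited cells. At day 14, 8 were lower in *Ifitm5*-high cells (18.3%), 8 in *Col10a1*-high cells (20.3%), 6 in *Ucma*-high cells (19.1%), 4 in *Aspn*-high cells (9.94%), 4 in *Rgs5*-high cells (9.52%), and 0 in *Cyp1b1*-high cells (3.87%). Over the 6 classes, 31 of 60 pairs of gene and class were lower at day 10 and 19 higher, and at day 14 the numbers were 30 and 19.

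At day 14, *Cyp1b1*-high cells were higher in 9 of the 10 genes, all but *Cxcl10* (background 6.26% of 14113 genes), *Rgs5*-high cells in 5 (background 12.0%), and *Ucma*-high cells in 3, *Cxcl1*, *Cxcl2*, and *Cxcl10* (background 4.44%). *Aspn*-high cells were higher in 1, *Cxcl12* (background 13.1%), *Col10a1*-high cells in 1, *Cxcl14* (background 8.42%), and *Ifitm5*-high cells in 0 (background 4.27%). Leaving out the cell with the most UMIs of a gene in a class ended 5 of these calls over both days. They were *Cxcl5* in *Rgs5*-high cells at day 10 (log2 ratio −0.75 without it), *Cxcl2* (−0.59), *Cxcl9* (−0.12), and *Ccl9* (2.01, with an interval that included 0) in *Cyp1b1*-high cells at day 14, and *Cxcl10* in *Rgs5*-high cells at day 14 (0.84). It brought 3 others, *Ccl7* higher in *Aspn*-high cells at day 10 (1.34), *Cxcl9* higher in the same class at day 14 (2.61), and *Cxcl1* lower in *Ifitm5*-high cells at day 14 (−3.57).

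**Figure D2:**
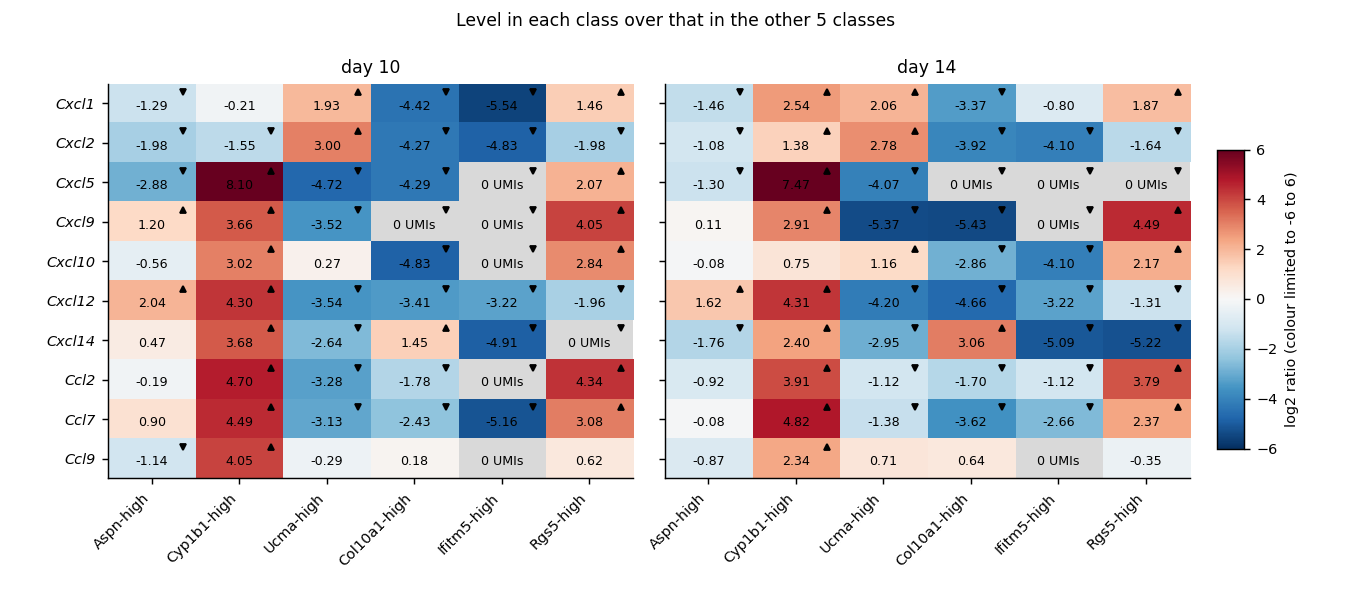
Heat map of the log2 ratio of each chemokine gene (rows) in a class (columns) over the other 5 classes of the same day, at day 10 and day 14, with the ratio printed in each cell. Upward and downward triangles mark genes called higher and lower, and grey cells had 0 UMIs in the class. The *Cyp1b1*-high column holds the largest ratio, 8.10 for *Cxcl5* at day 10, and *Cxcl2* is high in the *Ucma*-high column with 3.00 and 2.78.

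*Cxcl12*, the ligand of CXCR4, was highest in *Cyp1b1*-high cells. It stood there at 622 CPM (95% interval 569.8 to 677) at day 10 and 1250.1 CPM (1183 to 1320.3) at day 14, which was 19.7-fold and 19.9-fold over the other classes (log2 ratio 4.30, 95% interval 4.16 to 4.44, at day 10). In *Aspn*-high cells it stood at 87.4 and 123 CPM, 4.11-fold and 3.07-fold over the others. In the remaining classes it was far lower, between 4.49 CPM (*Col10a1*) and 10.9 CPM (*Rgs5*) at day 10, where *Rgs5*, *Ucma*, *Ifitm5*, and *Col10a1* did not differ from their neighbor in this order beyond counting error.

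The expression of *Cxcl12* was spread over most *Cyp1b1*-high cells. A UMI was present in 43 of 55 of them (78.2%) at day 10 and in 63 of 69 (91.3%) at day 14, and after each cell was thinned to 2000 UMIs the shares were 45.5% and 59.4%. *Col10a1*-high cells, which had the lowest level, had a UMI in 5.01% and 5.15% of cells, or 0 of 392 cells (upper limit 0.937%) and 0.463% after thinning. *Aspn*-high cells lay between, with 49.5% and 49.6% of cells, or 15.6% and 17.9% after thinning. At day 7, 8 *Cyp1b1*-high cells, too few to compare, had 1566 CPM of *Cxcl12*, and the 6570 *Ptprc* positive cells had 3.93 CPM.

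*Cxcl5*, a CXCR2 ligand, had the largest ratio between classes of the 10 genes. *Cyp1b1*-high cells had 119 at day 10 and 332 CPM at day 14, which was 275-fold and 177-fold over the other classes (log2 ratio 8.10, 7.41 to 8.85, and 7.47, 7.18 to 7.77), although 1 cell held 137 of the 342 UMIs at day 14. *Rgs5*-high cells had 9.80 CPM at day 10 and 0 UMIs at day 14, and *Aspn*-high cells 0.458 and 3.67 CPM. *Ifitm5*-high cells had 0 UMIs on both days. Most UMIs of *Cxcl5* lay outside the classes at day 10, with 659 of 781 (84.4%) in unassigned cells and 12.9% in *Cyp1b1*-high cells. With markers high from 10% of the 99th percentile, the ratio of *Aspn*-high cells to the other classes at day 10 turned from −2.88 to 1.30.

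The other CXCR2 ligands had another distribution. *Cxcl1* was highest in *Rgs5*-high cells at day 10, with 386 CPM (95% interval 346 to 428), followed by *Ucma*-high cells with 237 CPM (231 to 244), *Cyp1b1*-high cells with 126 CPM, and *Aspn*-high cells with 72.4 CPM, and each step in this order was beyond counting error. Without the cell with the most UMIs in each class, *Rgs5*-high cells kept 247 of 354 UMIs. They then stood at 273 CPM, against 232 CPM in *Ucma*-high cells. *Col10a1*-high cells had 7.83 CPM and *Ifitm5*-high cells 3.26 CPM with all cells. The level in *Ucma*-high cells was 3.81-fold over the other classes at day 10 and 4.18-fold at day 14, when it stood at 74.2 CPM. A UMI of *Cxcl1* was present in 408 of the 1195 *Ucma*-high cells (34.1%) at day 10 and in 22.2% at day 14, or 17.1% and 8.18% after thinning. *Ifitm5*-high cells had a UMI in 5.88% and 3.01% of cells, or 0.847% and 0.551% after thinning. At day 14, 1 cell held 73 of the 163 UMIs in *Cyp1b1*-high cells and 1 cell held 82 of the 94 UMIs in *Ifitm5*-high cells.

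*Cxcl2* was highest in *Ucma*-high cells at day 10, with 94.6 CPM, and stood there at 27.7 CPM at day 14, 7.99-fold and 6.89-fold over the other classes (log2 ratio 3.00, 2.83 to 3.17, and 2.78, 2.55 to 3.02). *Cyp1b1*-high, *Aspn*-high, and *Rgs5*-high cells had 17.6, 16.8, and 13.1 CPM at day 10, and neighbors in this order did not differ beyond counting error. The 22.3 CPM of *Cyp1b1*-high cells at day 14 did not differ from the level of *Ucma*-high cells beyond counting error (log2 ratio 0.31, −0.29 to 0.99), and 1 cell held 19 of the 23 UMIs. *Col10a1*-high and *Ifitm5*-high cells had between 0.548 and 3.04 CPM.

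Within *Ucma*-high cells, most UMIs of *Cxcl2* and of *Cxcl10* lay in cells that had a UMI of *Cxcl1*. At day 10, the 408 cells with a UMI of *Cxcl1* had 237 CPM of *Cxcl2* and the 787 cells without one had 13.6 CPM (log2 ratio 4.13, 95% interval 3.92 to 4.34). For *Cxcl10* the values were 19.2 and 1.41 CPM (log2 ratio 3.76), and for *Ccl2* 3.07 and 2.02 CPM, with an interval that included 0. The cells with *Cxcl1* were slightly deeper, with a median of 20596 against 18929 UMIs. At day 14, *Cxcl2* stood at 112 against 3.23 CPM, *Cxcl10* at 43.5 against 0.873, and *Ccl2* at 16.5 against 0.524. For *Ccl2*, the cells without *Cxcl1* held 6 UMIs. Without the cell with the most UMIs of the gene, the class kept 33 of 61 UMIs of *Ccl2*. It kept 318 of 410 for *Cxcl2* and 124 of 155 for *Cxcl10*. These are descriptions of cells of 1 library and have no replicate.

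Other genes moved with *Cxcl1* in these cells. The list of targets of NF-κB (such as *Tnfaip3*, which encodes an inhibitor of the pathway) stood at 354 CPM in the day 10 *Ucma*-high cells with *Cxcl1* and 121 CPM in those without, and all 6 genes of the list were higher. The immediate early genes, which respond to stimulation and also to warm digestion of tissue, stood at 15325 and 10983 CPM, with all 12 higher. Interferon response genes stood at 151 and 137 CPM, with 6 of 12 higher. These counts of list genes did not use the 2-fold limit, and the share of all genes is not given beside them. The part of the digestion in these levels was not tested.

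**Figure D3:**
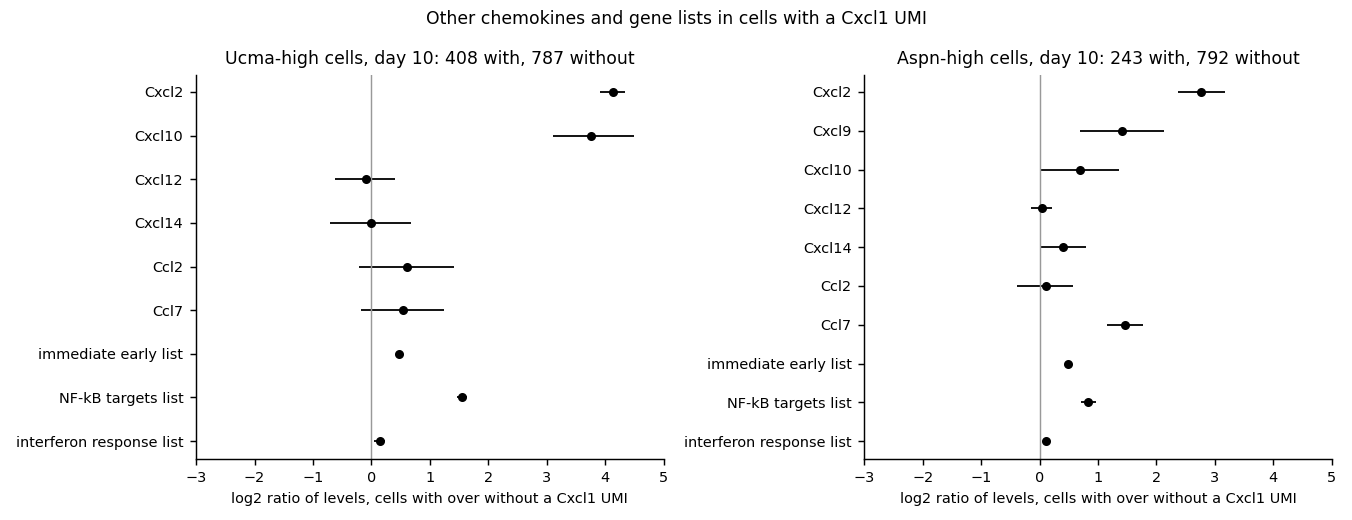
Log2 ratio of levels in cells with a UMI of *Cxcl1* over cells without one, for other chemokine genes with enough UMIs and for 3 gene lists, in *Ucma*-high (408 with, 787 without) and *Aspn*-high cells (243 with, 792 without) of day 10. Bars are exact binomial 95% intervals, and *Cxcl2* lies farthest to the right in both classes, at 4.13 and 2.77.

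*Ccl2* and *Ccl7*, the ligands of CCR2 that lie next to each other on chromosome 11, were shared by *Cyp1b1*-high and *Rgs5*-high cells. *Ccl2* stood at 244 and 200.4 CPM in these classes at day 10 and at 101 and 81.3 CPM at day 14, and the classes did not differ beyond counting error on either day. *Ccl7* stood at 262 and 119 CPM at day 10 and at 133 and 30.1 CPM at day 14, with 83 of the 137 UMIs of *Cyp1b1*-high cells in 1 cell at day 14. At day 10, *Ccl2* was 26.0-fold and *Ccl7* 22.5-fold over the other classes in *Cyp1b1*-high cells, and 20.2-fold and 8.48-fold in *Rgs5*-high cells.

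Elsewhere both genes were low. *Aspn*-high cells had 12.2 CPM of *Ccl2* and 23.5 CPM of *Ccl7* at day 10, and 5.47 and 6.32 CPM at day 14. *Ucma*-high, *Col10a1*-high, and *Ifitm5*-high cells had at most 4.35 CPM of either gene, and all 21 UMIs of *Ccl2* in *Ifitm5*-high cells at day 14 came from 1 cell. In *Aspn*-high cells, the level of *Ccl7* was higher where *Ccl2* was present. Most UMIs of *Ccl7* still lay in cells without *Ccl2*, with 192 against 167 at day 10 and 160 against 64 at day 14. At day 10, *Ccl7* stood at 119 CPM in the 87 cells with *Ccl2* and 13.8 CPM in the 948 without (log2 ratio 3.11, 95% interval 2.80 to 3.42), and at day 14 at 45.7 and 4.70 CPM.

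*Cxcl9* and *Cxcl10*, the ligands of CXCR3, were also highest in *Rgs5*-high and *Cyp1b1*-high cells at day 10. *Cxcl9* stood at 35.9 CPM in *Rgs5*-high and 29.4 CPM in *Cyp1b1*-high cells, and *Cxcl10* at 45.7 and 51.7 CPM. The order of the 2 classes was within counting error for both genes. *Aspn*-high cells had 4.58 CPM of *Cxcl9* and 5.37 CPM of *Cxcl10*, and *Ucma*-high cells 0.428 and 7.84 CPM. *Ifitm5*-high cells had 0 UMIs of both genes at day 10.

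These levels rested on few cells. Of the UMIs of *Cyp1b1*-high cells at day 10, 1 cell held 19 of 25 for *Cxcl9* and 1 cell 31 of 44 for *Cxcl10*. At day 14, *Rgs5*-high cells had 31.6 CPM of *Cxcl9* and 23.9 CPM of *Cxcl10*, of which 1 cell held 55 of 66 and 37 of 50 UMIs. *Ucma*-high cells had 10.5 CPM of *Cxcl10* and 0.0676 CPM of *Cxcl9* at that time.

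The interferon response list, of which neither gene is a member, had 11 genes tested at day 10. It was higher in 9 of them in *Cyp1b1*-high cells (881 against 334 CPM summed), in 8 in *Rgs5*-high cells (1049.9 against 330.3 CPM), and in 8 in *Aspn*-high cells (667 against 199 CPM). The share of all tested genes that were higher was 10.5%, 12.3%, and 13.5% in these classes, in that order. The list did not follow *Cxcl9* and *Cxcl10* in every class. In *Ucma*-high cells, with more *Cxcl10* than *Aspn*-high cells, it stood at 142 against 524 CPM, and in *Ifitm5*-high cells, with 0 UMIs of both genes, at 368 against 343 CPM. At day 14, *Rgs5*-high cells were higher in 10 of 12 genes (485 against 153 CPM, background 12.0%) and *Cyp1b1*-high cells in 7 (414 against 159 CPM, background 6.26%). Among the unassigned cells of day 14, the 61 cells with a UMI of *Cxcl10* had 846 CPM of the list and the 4935 without had 121 CPM (log2 ratio 2.81). All 12 genes were higher in the former, a count that did not use the 2-fold limit. The neutrophil list differed more between the same cells, with 4715 and 528 CPM (log2 ratio 3.16), and its part in the result was not tested. At day 10 the interferon list stood at 584 CPM in the 79 cells with *Cxcl10* and 297 CPM in the 3635 without (log2 ratio 0.97), and the neutrophil list at 0.653 and 48.6 CPM.

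*Cxcl14*, a chemokine of fibroblasts and epithelia whose signaling receptor is not settled, was the only one of the 10 genes called higher in *Col10a1*-high cells. It stood at 29.4 at day 10 and 57.4 CPM at day 14, 2.73-fold and 8.32-fold over the other classes (log2 ratio 1.45, 1.20 to 1.69, and 3.06, 2.88 to 3.23). A UMI was present in 5.76% of *Col10a1*-high cells at day 10 and 11.1% at day 14, or 2.30% and 6.49% after thinning. *Cyp1b1*-high cells had more, 142 and 86.4 CPM, and *Aspn*-high cells 16.6 and 7.70 CPM. *Rgs5*-high cells had 0 UMIs at day 10 and 0.478 CPM at day 14, in contrast to their levels of *Ccl2* and *Cxcl1*.

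*Ccl9*, a ligand of CCR1, was low in the classes. *Cyp1b1*-high cells had 18.8 at day 10 and 2.91 CPM at day 14, the other classes had at most 2.18 CPM, and *Ifitm5*-high cells had 0 UMIs on both days. Its highest levels were in *Ptprc* positive cells.

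In the *Ptprc* positive cells of day 7, *Cxcl2* and *Ccl9* were higher than in the cells with a high marker. *Cxcl2* stood at 109 CPM against 14.1 CPM in the 55 marker-high cells of that library (7.73-fold, log2 ratio 2.95, 95% interval 2.23 to 3.79), and *Ccl9* at 26.5 against 2.82 CPM (9.39-fold, log2 ratio 3.23, 1.68 to 5.51), so that 2 of the 10 genes were higher, where 19.5% of the 12559 genes tested were. A further 6 were lower, where the background was 33.7%. *Cxcl5* was 734-fold lower (0.0795 against 58.4 CPM), *Cxcl12* 46.9-fold, *Ccl7* 28.1-fold, *Cxcl1* 23.7-fold, *Cxcl14* 19.6-fold, and *Ccl2* 5.84-fold. Except for *Cxcl1*, most of these UMIs in marker-high cells came from the 8 *Cyp1b1*-high cells. Those held 62 of 62 for *Cxcl5*, 16 of 16 for *Ccl7*, 178 of 196 for *Cxcl12*, and 8 of 9 for *Ccl2*. They also held 13 of 19 for *Cxcl14* and 9 of 23 for *Cxcl1*, so the folds do not describe the marker-high cells in general. The calls of *Cxcl5*, *Ccl7*, and *Ccl2* were lost without the cell with the most UMIs in each group (log2 ratios −7.91, −4.82, and −1.19). For *Cxcl5* and *Ccl7* fewer than 30 UMIs were then left, and for *Ccl2* the interval included 0. *Cxcl1* stood at 0.914 CPM in *Ptprc* positive cells, with 29 of its 46 UMIs in 1 cell.

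Within the *Ptprc* positive cells the 2 genes differed between cells high for different markers. The 5579 cells high for *S100a8*, a gene of neutrophils, had 115 CPM of *Cxcl2*, with a UMI in 22.0% of them (15.6% after thinning), and 4.50 CPM of *Ccl9*. The 164 cells high for *Cd79a*, a B cell gene, had 1.60 CPM of *Cxcl2* (1.22% of cells, 0.617% after thinning) and 3.21 CPM of *Ccl9*. The 97 cells high for *Csf1r*, the receptor gene of monocytes and macrophages, had 439 CPM of *Ccl9*, with a UMI in 75.3% of them (50.5% after thinning). They also had 295 CPM of *Cxcl2*, but 1 cell held 159 of the 288 UMIs. The 102 cells high for *Mpo*, a gene of granulocyte precursors, had 11.8 CPM of *Cxcl2* and 89.1 CPM of *Ccl9*.

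The cells with *Cxcl2* were not deeper than the others. The 1337 *Ptprc* positive cells with a UMI of *Cxcl2* had a median of 4047 UMIs and the 5233 without one 5452. Immediate early genes stood at 4774 CPM in the former and 2439 CPM in the latter, and their part in the level of *Cxcl2* was not tested.

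**Figure D4:**
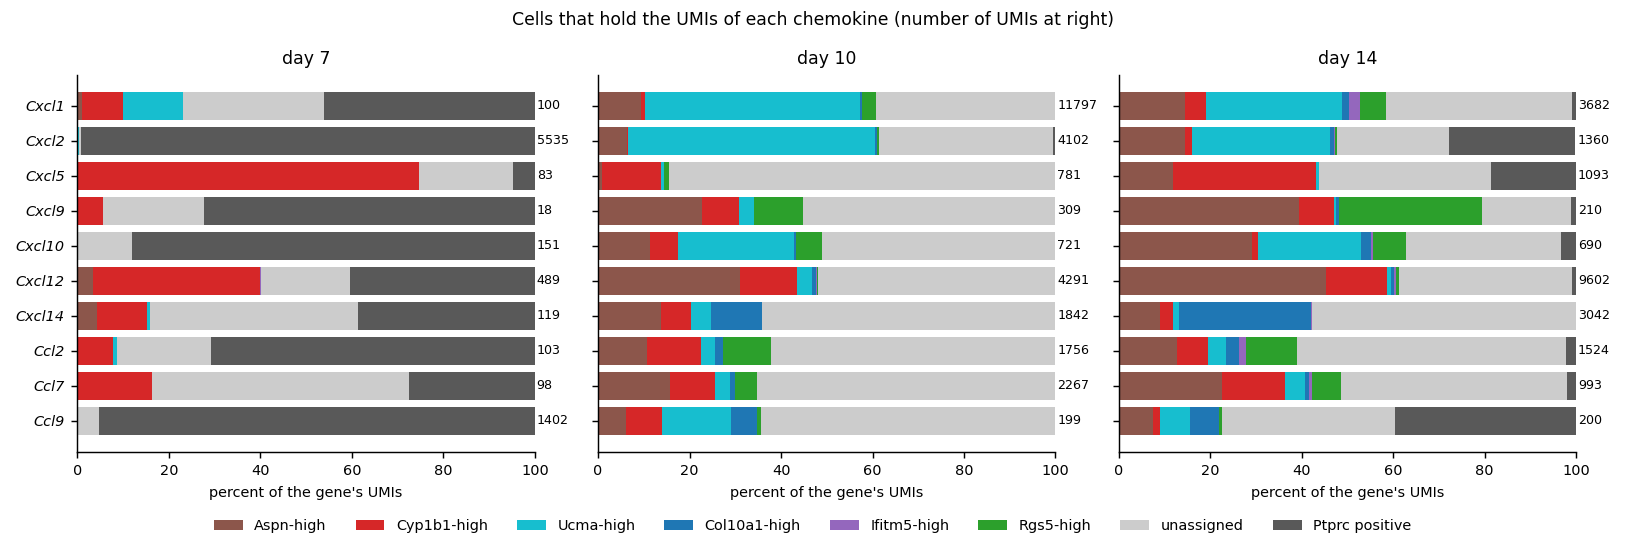
Share of all UMIs of each chemokine gene, in percent, that falls to each group of cells at day 7, day 10, and day 14, with the number of UMIs at the right of each bar. *Ptprc* positive cells hold most UMIs of *Cxcl2* and *Ccl9* at day 7, and unassigned cells hold 65.2% of those of *Ccl7* at day 10.

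Several genes for chemokine receptors were higher in the *Ptprc* positive cells of day 7. Of 23 genes for chemokine receptors, 14 could be tested and 7 of these were higher than in marker-high cells, against the background of 19.5%. They were *Ccr1*, *Ccr2*, *Ccr9*, *Ccrl2*, *Cxcr1*, *Cxcr2*, and *Cxcr4*. *Ccr9* stood at 3.86 CPM, and 28 cells high for none of *S100a8*, *Csf1r*, *Cd79a*, or *Mpo* held 187 of its 194 UMIs. *Cxcr2*, the receptor of CXCL1, CXCL2, and CXCL5, stood at 804 CPM and *Ccr1* at 323 CPM, and *Cxcr4*, the receptor of CXCL12, at 172 CPM. *Ccr2*, the receptor of CCL2 and CCL7, stood at 1324 CPM in *Csf1r*-high cells against 2.00 CPM in *S100a8*-high cells. Among the classes without *Ptprc*, the scavenging receptor *Ackr3* was high in *Col10a1*-high cells, with 237 at day 10 and 193 CPM at day 14, whereas *Cxcl12* was low there.

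Between day 10 and day 14, more of the genes fell than rose. Of 60 pairs of gene and class, 40 had enough UMIs, of which 15 were at least 2-fold lower at day 14 and 5 at least 2-fold higher. The share of all tested genes that were lower or higher was 2.75% and 1.76% in *Aspn*-high cells, 4.75% and 3.31% in *Cyp1b1*-high cells, 1.87% and 2.08% in *Ucma*-high cells, 1.64% and 1.49% in *Col10a1*-high cells, 1.68% and 1.44% in *Ifitm5*-high cells, and 1.92% and 2.32% in *Rgs5*-high cells. As each day was 1 library, these are differences between libraries.

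**Figure D5:**
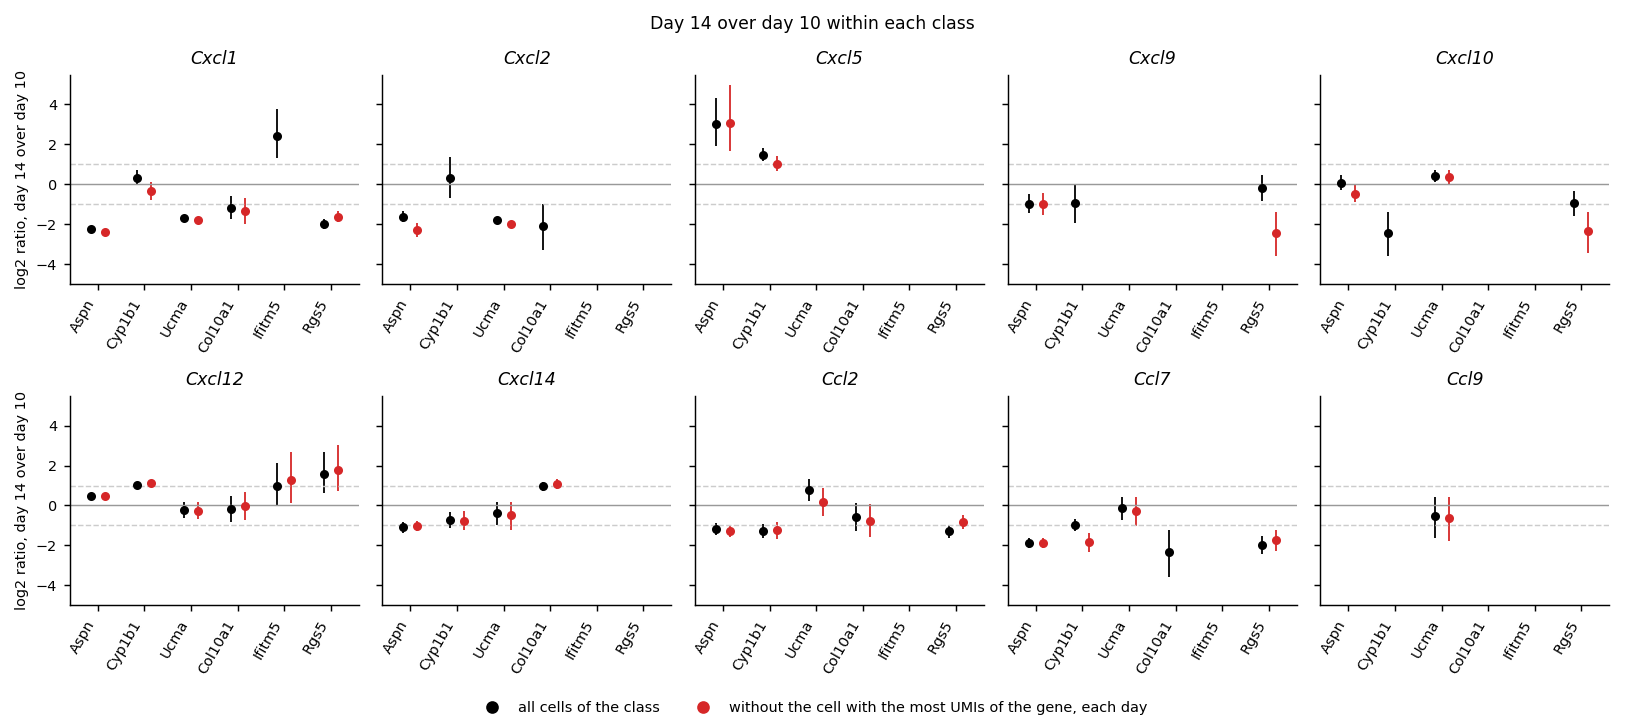
Log2 ratio of day 14 over day 10 for each chemokine gene in each class, in black for all cells and in red without the cell with the most UMIs on each day, with exact binomial 95% intervals. Only ratios from at least 30 UMIs are drawn, and dashed lines mark 2-fold. *Cxcl1* lies below 0 in *Aspn*-high, *Ucma*-high, *Col10a1*-high, and *Rgs5*-high cells.

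*Cxcl1* was lower at day 14 in 4 of the 6 classes. It went from 72.4 to 15.2 CPM in *Aspn*-high cells (log2 ratio −2.25, 95% interval −2.41 to −2.10), from 237 to 74.2 CPM in *Ucma*-high cells (−1.68), from 7.83 to 3.46 CPM in *Col10a1*-high cells (−1.18), and from 386 to 98.6 CPM in *Rgs5*-high cells (−1.97). *Cxcl2* was lower in *Aspn*-high (−1.61), *Ucma*-high (−1.77), and *Col10a1*-high cells (−2.08, with under 30 UMIs left without 1 cell). The call of *Cxcl1* as higher in *Ifitm5*-high cells (2.40) was lost without 1 cell (−0.36).

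The CCR2 ligands were lower in several classes. *Ccl2* was lower in *Aspn*-high (−1.16), *Cyp1b1*-high (−1.28), and *Rgs5*-high cells (−1.30, and −0.83 without 1 cell), and *Ccl7* in *Aspn*-high (−1.90), *Rgs5*-high (−1.98), and *Col10a1*-high cells (−2.35, with under 30 UMIs left without 1 cell). *Cxcl14* was lower in *Aspn*-high cells (−1.10) and *Cxcl10* in *Cyp1b1*-high cells (−2.41, with under 30 UMIs left without 1 cell). Leaving out 1 cell also brought calls that were not there before, which were *Ccl7* lower in *Cyp1b1*-high cells (−1.85), *Cxcl9* (−2.43) and *Cxcl10* (−2.35) lower in *Rgs5*-high cells, *Cxcl14* higher in *Col10a1*-high cells (1.07), and *Cxcl12* higher in *Ifitm5*-high cells (1.29).

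*Cxcl12* and *Cxcl5* went the other way. *Cxcl12* was higher at day 14 in *Cyp1b1*-high cells (1.01, which is 2.01-fold and just past the limit) and in *Rgs5*-high cells (1.58), where it went from 10.9 to 32.5 CPM, and *Cxcl5* was higher in *Cyp1b1*-high (1.48) and *Aspn*-high cells (3.00). In *Aspn*-high cells 1 cell held 52 of the 130 UMIs of *Cxcl5*, and the ratio turned to −0.79 with markers high from 10% of the 99th percentile.

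Other lists moved between the 2 libraries as well. In *Aspn*-high cells the interferon response list stood at 667 at day 10 and 225 CPM at day 14, with 6 genes lower, and the NF-κB list at 136 and 68.6 CPM, with 3 lower. In *Ucma*-high cells the NF-κB list stood at 205 and 113 CPM, with 3 lower. The share of all tested genes that were lower was 2.75% in *Aspn*-high and 1.87% in *Ucma*-high cells. Genes of neutrophils stood at 3.60 at day 10 and 245 CPM at day 14 in *Aspn*-high cells, and reached 25.2 to 37.3 CPM at day 14 in the other classes. Their part in the differences between the days was not tested. Genes of macrophages stood at 0.931 to 4.31 CPM in the classes, and without the cells that had a UMI of *C1qa*, *C1qb*, *C1qc*, or *Csf1r*, all 117 called ratios had the same direction.

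The genes whose levels were most like those of a chemokine were taken over 17 groups of cells and day and 8560 genes, by Pearson's r of log2(CPM + 1). These groups are more than the marker-high classes compared by day, so r does not describe those classes alone. Groups outside the classes, such as unassigned or *Ptprc* positive cells, can shape r, and their part was not tested. The 17 groups share libraries and differ in size and depth, so r describes these 17 groups only. For *Ccl2* they were *Ms4a4d* (0.95), *Ccl7* (0.94), and *Cxcl9* (0.93), and for *Ccl7* they were *Ccl2* (0.94), *Twist2* (0.93), and *Lman2* (0.92). For *Cxcl12* they were *Adamts16* (0.96), *Ptgfr* (0.95), and *Cyp1b1* (0.94), the last of which marks one of the classes, and for *Cxcl5* they were *Cxxc1* (0.85), *Cyp1b1* (0.84), and *Kng2* (0.82). Since *Cyp1b1* was used to pick that class, its r with genes high there follows in part from that choice and is no separate result. *Cxcl9* was most like *Ms4a4d* (0.97), *Twist2* (0.95), and *Jag1* (0.95), and *Cxcl10* like *Hnrnph2* (0.92), *Agpat5* (0.90), and *Ran* (0.90). *Cxcl1* had *Fam13c*, *Adcy2*, and *Rbbp7* (each 0.87), *Cxcl2* had *Rel* (0.83) and *Pts* (0.79), and *Cxcl14* had *Ccng1* (0.90), *Actr3b* (0.86), and *Ptges* (0.85). For *Ccl9* they were *Usp38*, *Relt*, and *Gatm* (each 0.92).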

How the data were processed

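The authors sorted the cells, made 10x Genomics libraries, aligned the reads to mm10, and deposited raw UMI counts per gene and cell from Cell Ranger, without normalization. The labels name Cell Ranger 3.0 and the file headers 3.1.0. The kit version differs between the labels and the methods, and the methods name a later Cell Ranger. The 9103, 8801, and 12984 deposited cells of day 7, day 10, and day 14 were limited as in the study to 500 to 5000 genes, at most 10% mitochondrial UMIs, and at most 5% hemoglobin UMIs.

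The 10 genes, the classes, the lists, and the tests were chosen with earlier results of these data known. Cells high for several markers (0, 25, and 53 by day) went to the marker with the highest level relative to its 99th percentile. For *Cyp1b1* the limit of 0.475 UMIs per 10000 was low, so 3 UMIs decided. No doublet caller was run, and the upper limit on genes and a setting with exactly 1 marker stood in for one. Levels of classes were compared on days with at least 50 cells. Shares of cells used thinning to 2000 UMIs with seed 0. No p-values were computed, since cells of 1 library are not replicates. A count of 0 was drawn at the level of 3 UMIs, but the calls used the 0 itself and its interval. Taken as 3 UMIs, *Cxcl5* in *Ifitm5*-high cells at day 10 would be 1.85-fold lower, which is under the limit. Besides the 10 genes, other chemokines and receptors were named at 20 CPM or more in any class, and the 3 most similar genes for each chemokine. For *Cxcl2*, 1 of the 3 is not reported here. Genes of the fixed lists were named as they were called. Neutrophil, macrophage, and endothelial genes were checked for other cells. At day 10 the endothelial list stood at 58.8 CPM in *Rgs5*-high cells against 2.14 CPM in the other classes, and at 0 UMIs in *Cyp1b1*-high cells.

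Alternatives were other limits for high markers and cells, a mean over cells, a total without collagen genes, thinning, cells without macrophage genes, 2 UMIs of *Ptprc*, and, added after seeing the data, leaving out the cell with the most UMIs. The procedures were tested on simulated data. Python 3.11.15 with numpy 2.4.6, scipy 1.17.1, pandas 2.3.3, and matplotlib 3.10.9 was used.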

Additional observations from a re-analysis of the deposited data

Results flagged for a closer look

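*Cxcl1* went in opposite directions between day 10 and day 14 in different classes. Its log2 ratio of day 14 over day 10 was 2.40 in *Ifitm5*-high cells, and −2.25 in *Aspn*-high, −1.68 in *Ucma*-high, −1.18 in *Col10a1*-high, and −1.97 in *Rgs5*-high cells. The difference between classes was not tested. In *Ifitm5*-high cells 1 cell held 82 of the 94 UMIs of day 14, and without the top cell of each day the ratio was −0.36.

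The *Ptprc* positive cells of day 14, 173 in number, were used in none of the ratios between groups, and they stood above every marker-high class of that day for 2 genes. *Cxcl2* was at 178 CPM and *Ccl9* at 37.4 CPM, of which 1 cell held 47 of the 79 UMIs of *Ccl9*.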

How the results depend on the processing

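No paired analysis was possible because each day was 1 library. For the same reason no library could be left out. Of the called ratios, the direction was the same for 99 of 101 with the limits for high markers doubled to 50%, 114 of 117 with 10%, 95 of 95 with exactly 1 high marker, 116 of 117 in all deposited cells, 116 of 117 without the upper limit on genes, 117 of 117 with a mean over cells, 117 of 117 without collagen genes in the total, 100 of 100 after thinning, 8 of 8 with at least 2 UMIs of *Ptprc*, and 104 of 108 without the top cell. The limits of 50% and 10% left *Cyp1b1*-high cells at 55 and 69, since 3 UMIs decided there, so they did not test the choice of that class. Reversed were *Cxcl5* in *Rgs5*-high cells at day 10 (−1.95 with the higher limit, −0.75 without the top cell), *Cxcl1* in *Ifitm5*-high cells between the days (−1.01 with the higher limit, −0.18 with the lower, −0.36 without the top cell), *Cxcl5* in *Aspn*-high cells at day 10 (1.30) and between the days (−0.79) with the lower limit, *Cxcl2* in *Cyp1b1*-high cells at day 10 (0.36 in all deposited cells, 0.34 without the upper limit), and *Cxcl2* (−0.59) and *Cxcl9* (−0.12) in *Cyp1b1*-high cells at day 14 without the top cell. The 5 pairs higher at day 14 became 3 with the higher limit, 3 with exactly 1 marker, 8 in all deposited cells, 8 without the upper limit, and 3 after thinning, and the 15 lower became 9 after thinning. With exactly 1 marker, the pairs higher in a class went from 19 to 11 at day 10 and from 19 to 10 at day 14, since *Cyp1b1*-high cells then numbered 46 and 44 and were not compared. At day 7, the 2 genes higher in *Ptprc* positive cells became 1 and the 6 lower became 1 after thinning, and the 6 lower became 3 without the top cell. With the higher limit, 35 marker-high cells were left at day 7 and the comparison was not run. Apart from the smaller groups and the single cells named, the cause was not tested. The number of cells limits *Cyp1b1*-high and *Rgs5*-high cells, with 55 and 70 at day 10, and thinning leaves few UMIs of the low genes.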

Other observations

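Of the 28 other genes for chemokines, 24 had a UMI and 10 reached 20 CPM in a class or in *Ptprc* positive cells. *Ccl11*, the eotaxin that attracts eosinophils, stood at 37.0 at day 10 and 56.5 CPM at day 14 in *Rgs5*-high cells and at 0 UMIs in *Cyp1b1*-high cells at day 10. *Cx3cl1*, a membrane-bound chemokine, stood at 34.9 and 25.8 CPM in *Rgs5*-high cells and at 18.8 and 24.3 CPM in *Cyp1b1*-high cells. *Ccl19*, a ligand of CCR7, stood at 3.53 and 35.9 CPM in *Cyp1b1*-high and at 4.36 and 22.5 CPM in *Rgs5*-high cells. *Cxcl16* stood at 15.3 and 44.6 CPM in *Cyp1b1*-high cells. *Ccl20* had 0 UMIs at day 10 and 38.8 CPM at day 14 in *Cyp1b1*-high cells, where 2 cells held all 40 UMIs. In the *Ptprc* positive cells of day 7, *Ccl6* stood at 990.1 CPM and *Ccl5* at 37.3 CPM. A UMI of *Ccl6* was present in 4692 of the 6570 cells and one of *Ccl5* in 70. Of the 1875 UMIs of *Ccl5*, 1756 lay in 38 cells high for none of *S100a8*, *Csf1r*, *Cd79a*, or *Mpo*. *Ackr4*, a scavenging receptor of CCL19, stood at 25.9 and 20.4 CPM in *Cyp1b1*-high cells.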
